A study of Mus musculus with 4 samples.

Results

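Axon guidance ligands and receptors steer growing nerve fibres and migrating neurons. The ligands of the 4 classical systems, the Slits, netrins, semaphorins and ephrins, sit on or are released from guidepost cells, and the matching Robo, Dcc and Unc5, neuropilin and plexin, and Eph receptors turn contact with them into attraction or repulsion of the growth cone. In the cerebellum of the first postnatal week, granule neurons leave the external granule layer and extend parallel fibres while incoming axons search for their targets, and members of all of these families are known to act there. The genes were chosen by symbol, as all Eph, ephrin, semaphorin, plexin, neuropilin, Slit, Robo, netrin, Unc5 and Dcc symbols on the array, a rule that uses no measured value. They were 65 of the 30854 gene symbols on the array and had 159 of its 45281 probes.

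The samples were cerebellar lobes, anterior or posterior, of untreated Swiss mice at postnatal day 7, with 2 samples per lobe and 1 Illumina MouseWG-6 v2.0 array per sample. On this array a probe is a short DNA sequence carried by many beads, and the signal of the probe is the mean brightness of its beads. The labels do not say whether the 2 samples of a lobe came from separate animals or pools, so the p-values measure the spread between these samples, which may be technical. Tissue was taken as whole lobes, so fewer cells of a type and less RNA per cell cannot be told apart. All 7 granule neuron markers with a probe were bright enough to be tested, Neurod1, Pax6 and Zic1 among them, and so were 6 of 8 Purkinje cell markers, whereas the probes of Calb1, Car8 and the granule progenitor genes Atoh1 and Gli1 were not. The arrays had a median intensity of 110.2 to 129.6 and called 46.5% to 47.6% of probes detected at a detection p-value under 0.05, the detection p-value of a probe being the proportion of negative controls that matched or exceeded its brightness. The 2 anterior arrays were less alike than the 2 posterior ones, with an SD of their log2 difference over all tested probes of 0.318 and 0.203.

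Of the 159 guidance probes, 84 probes of 47 genes were detected on at least 2 of the 4 arrays and were tested, 52.8% against 48% of all probes. On any one array between 80 and 84 of the guidance probes were detected. The standard error of the mean over the beads lay between 2.24% and 7.87% of the signal for the tested guidance probes. The 18 genes without a tested probe were Slit1, Robo3, Unc5d, Sema3c, Sema3e, Sema3g, Sema4c, Nrp2, Plxna1, Plxna3, Plxna4, Efna2, Efna3, Efnb2, Epha1, Epha2, Epha8 and Epha10. Robo3, a Robo receptor known for its part in midline crossing, and Nrp2, a receptor of class 3 semaphorins, thus gave no lobe difference here, and no probe carried the symbol of netrin 1.

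Slit2, Epha3 and Sema3f were higher in the posterior lobes on every tested probe of theirs that was detected in both lobes. Lower were 7 semaphorins together with the plexin Plxnb3. The criterion of the study, over 1.2-fold with an unadjusted p under 0.05, was passed by 22 of the 84 tested guidance probes, 26.2%, against 8.29% of all 21726 tested probes by limma. In the posterior lobes 13 guidance probes of 6 genes were higher, against 3.30% of all tested probes, and 9 probes of 8 genes were lower, against 5.00%. Several of these probes belong to the same gene and are not independent of each other. With the brightest probe of each gene alone, 4 genes were higher and 7 lower, against 3.45% and 4.46% of all genes. Slit2 ILMN_1232381 and Epha5 ILMN_2599385 entered the test only through the posterior arrays on which they were detected, and Epha5 was counted on that probe alone. With detection required on all 4 arrays, 11 guidance probes were higher and 9 lower, against 7.93% of all probes then tested in both directions. After Benjamini-Hochberg adjustment over all tested probes no guidance probe passed 0.05 by limma, the lowest adjusted p being 0.18, where 0.106% of all tested probes passed. At an unadjusted p under 0.05 there were 25 guidance probes and 10.1% of all tested probes. Without anterior replicate 1 the adjusted p was passed by 21 guidance probes and by 12.3% of all tested probes, and without anterior replicate 2 by 4 and by 1.17%. The methods' t-test also gave 0 guidance probes past the adjusted p, as for all tested probes. It gave 14 at an unadjusted p under 0.05, for which no share of all probes was counted. By that t-test 9 guidance probes passed the criterion, 6 higher and 3 lower, against 3.41% of all tested probes. The lobes did not overlap for 24 guidance probes that were higher and 18 that were lower in the posterior lobes, against 42.6% of all tested probes. With 4 arrays the smallest p of a two-sided exact permutation test is 0.33, and the p-values given here therefore depend on limma, which borrows its estimate of the spread from all probes.

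The median log2 difference, posterior minus anterior, was 0.024 over the tested guidance probes and 0.0023 over all tested probes. Ligands and receptors were spread to both sides. Of 39 ligand probes 6 were higher and 8 lower past the criterion, and of 45 receptor probes 7 were higher and 1 lower. In both directions this was 35.9% of the ligand and 17.8% of the receptor probes, against 8.29% of all tested probes. Without any normalization between arrays the split of 13 higher and 9 lower probes became 11 and 4, while the share of all tested probes past the criterion went from 8.29% to 6.06%. The number of probes past the criterion depended on single arrays. It was 3 without posterior replicate 1, where 3.59% of all tested probes passed and only the Slit2 probes ILMN_1253797 and ILMN_1258994 and the Sema6c probe remained. It was 11 without posterior replicate 2 against 3.78%, and 35 without anterior replicate 1 against 22.1%. Without anterior replicate 2 the count was 19, against 9.26%, and Epha5, both Ephb4 probes, Sema4d and Sema6b no longer passed. All 22 probes could be tested when an anterior array was left out, and 20 of them when a posterior one was. None of those tested changed sign, which was fixed beforehand, since the lobes did not overlap on any of the 22.

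**Figure D1:**
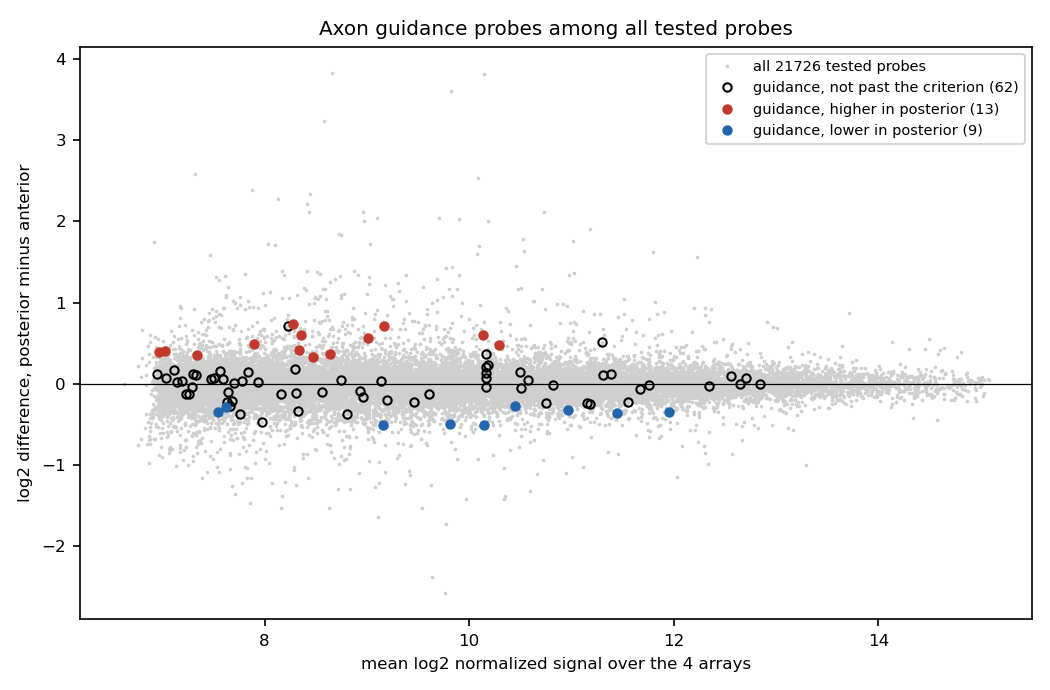
Log2 difference, posterior minus anterior, against the mean log2 normalized signal over the 4 arrays. Grey points are all 21726 tested probes, and circles are the 84 guidance probes, of which the 13 red ones were higher and the 9 blue ones lower past the 1.2-fold criterion. The guidance probes lie between -0.51 and 0.74, inside the range of the other probes.

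Slit2 is a secreted ligand that repels axons and migrating neurons through Robo receptors. Of its 4 tested probes, those detected in both lobes were all higher in the posterior lobes. The other, ILMN_1232381, entered the test only through the posterior arrays, so the filter itself favoured its direction. Promoters are shown for Slit2 and for Epha3, described further on, as the genes with the most probes past the criterion. Both sequences cover the 300 bases around the annotated start in RefSeq on the build GRCm38.p6, with Slit2 at chr5:47982905-47983204 on the plus strand and Epha3 at chr16:63864126-63864425 on the minus strand. Capitals mark the GC box, searched as GGGCGG and, for the other strand, CCGCCC.
Slit2: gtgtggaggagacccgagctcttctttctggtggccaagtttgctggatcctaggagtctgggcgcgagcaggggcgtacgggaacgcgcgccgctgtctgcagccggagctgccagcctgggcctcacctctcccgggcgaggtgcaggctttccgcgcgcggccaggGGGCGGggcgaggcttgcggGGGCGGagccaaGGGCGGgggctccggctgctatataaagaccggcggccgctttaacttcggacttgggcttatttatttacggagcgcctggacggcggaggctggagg
Epha3: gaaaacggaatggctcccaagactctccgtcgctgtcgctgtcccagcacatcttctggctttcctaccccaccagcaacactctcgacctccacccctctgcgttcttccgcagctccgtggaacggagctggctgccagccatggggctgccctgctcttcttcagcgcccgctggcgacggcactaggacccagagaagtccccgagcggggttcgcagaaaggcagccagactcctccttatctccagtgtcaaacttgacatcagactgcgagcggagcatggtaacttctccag
The Slit2 window holds 3 GC boxes, which do not overlap each other, and the Epha3 window none. Of the 32851 promoters of this length in the same table, 35.7% hold at least 1. Counted by gene over all its promoters, 29 of the 42 tested guidance genes with a promoter hold at least 1. Among those with a probe past the criterion it was 8 of 12. These counts are by gene and the 35.7% is by single promoter, so they cannot be compared. No share by gene was counted over all genes. The core letters TAATCC, which Otx factors are known to bind, are in neither window on either strand and stand in 7.06% of all promoters. Such matches describe the letters only.

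On the Slit2 probe ILMN_1258994 the log2 signal was 8.80 and 8.81 on the anterior arrays and 9.63 and 9.41 on the posterior arrays. The lobes did not overlap, and the anterior arrays were almost equal. The log2 difference was 0.71 (standard error 0.13, unadjusted p = 0.0015, adjusted p = 0.18 by limma), or 1.64-fold. ILMN_1253797 gave 10.03 and 10.08 in the anterior and 10.52 and 10.55 in the posterior lobes, a log2 difference of 0.48 (standard error 0.09, adjusted p = 0.20 by limma). On this probe too the arrays of a lobe were closer to each other than to the other lobe. ILMN_2572200 was dimmer, with 7.10 and 7.23 against 7.60 and 7.44, a log2 difference of 0.36. The last tested probe, ILMN_1232381, had an intensity of 115.6 and 100.8 on the anterior arrays, on neither of which it was detected, and was just above background on the posterior arrays with 143.4 and 147.1. Its anterior signal is background, so its difference is a bound. Measured from the dimmest detected probe of each anterior array instead, Slit2 was at least 1.11-fold higher on the posterior side. The other 3 Slit2 probes were not detected on any array. ILMN_1258994 and ILMN_1253797 passed the criterion under all 14 alternatives of normalization, filter, test and left-out array, with log2 differences of 0.60 to 0.83 and 0.45 to 0.51. Slit3, a further Slit, was not higher, with 7.17 and 7.41 in the anterior and 7.12 and 7.22 in the posterior lobes.

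The Robo receptors did not pass the criterion on any of the 7 tested probes. Robo1 (ILMN_1244484) had a log2 signal of 11.53 and 10.55 on the anterior arrays and 11.62 and 11.50 on the posterior arrays. Anterior replicate 2 stood apart from the other 3 arrays, so the log2 difference of 0.52 had a standard error of 0.30 (adjusted p = 0.60 by limma). Robo2, which mediates Slit repulsion beside Robo1, had 5 tested probes with differences from -0.23 to 0.23. Its probes lay on both sides of 0 and none had an unadjusted p under 0.05 by limma. Robo4, a Robo of blood vessels, had 10.51 and 10.54 against 10.45 and 10.51 on ILMN_2942011, a log2 difference of -0.05 with a standard error of 0.09.

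**Figure D2:**
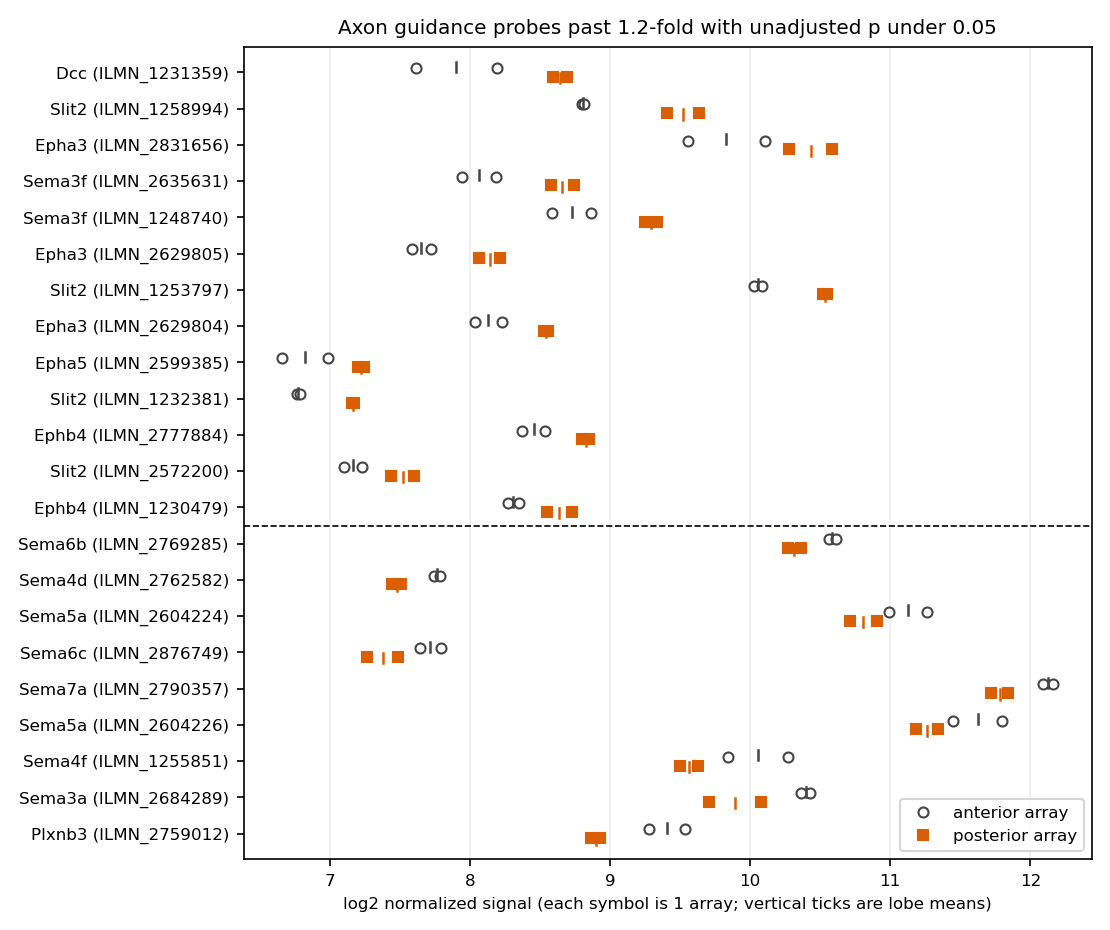
Log2 normalized signal of the 22 guidance probes past the 1.2-fold criterion, with a circle for each anterior and a square for each posterior array and a vertical tick for each lobe mean. Above the dashed line are the 13 probes that were higher in the posterior lobes and below it the 9 that were lower. The lobes do not overlap on any of the 22, which were chosen by fold and p on these same arrays. Of all tested probes 42.6% do not overlap. The anterior signals of Epha5 ILMN_2599385 and Slit2 ILMN_1232381 are background.

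Dcc, the receptor through which netrin attracts axons, passed the criterion on 1 of its 2 tested probes. On ILMN_1231359 the log2 signal was 8.19 and 7.62 in the anterior and 8.69 and 8.60 in the posterior lobes. The log2 difference was 0.74 with a standard error of 0.20 (adjusted p = 0.34 by limma), the largest among the guidance probes, and anterior replicate 2 was the lowest array. The second probe, ILMN_1230591, gave 8.36 and 8.04 against 8.59 and 8.18, and its lobes overlapped. The lobe difference of Dcc thus came from 1 probe, and the criterion was lost without posterior replicate 1, at a log2 difference of 0.69, and with the methods' t-test. Without anterior replicate 2 the log2 difference was 0.45.

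The Unc5 receptors, which turn netrin attraction into repulsion, had 6 tested probes and none past the criterion. Unc5c is the gene of the rostral cerebellar malformation mutant, in which cerebellar cells settle beyond the rostral border. Its probes ILMN_2461665 and ILMN_2461668 had log2 differences of 0.10 and 0.07 with a standard error of 0.07 each, the first with 12.48 and 12.55 in the anterior and 12.64 and 12.59 in the posterior lobes. ILMN_2454223 of the same gene had a log2 difference of 0.71 from 8.30 and 7.46 against 8.86 and 8.32, with an unadjusted p of 0.062 by limma, and ILMN_2558487 had -0.04. The Unc5c probes therefore differed among themselves, and the lobes did not overlap on the first 3 of them. Unc5b (ILMN_2523316) gave 10.32 and 9.65 against 10.43 and 10.27, where anterior replicate 2 was again below the other arrays. The tested netrin was Ntn4, with 7.32 and 7.63 in the anterior and 7.50 and 7.59 in the posterior lobes.

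Semaphorins are secreted or membrane-bound ligands that mostly repel axons. They held 8 of the 9 lower probes. Of 27 tested semaphorin probes 2 were higher and 8 lower past the criterion, against 3.30% and 5.00% of all tested probes. A difference below 0 was found for 19 of them, against 49.4% of all tested probes, with a median of -0.23. The secreted class 3 went both ways. Sema3f, which acts through Nrp2, gave 8.18 and 7.94 in the anterior and 8.74 and 8.58 in the posterior lobes on ILMN_2635631, a log2 difference of 0.60 (standard error 0.14, adjusted p = 0.28 by limma). Its probe ILMN_1248740 gave 8.87 and 8.59 against 9.34 and 9.25, a log2 difference of 0.57. Both probes were thus about as far apart between the lobes, and its last probe was not detected. With the methods' t-test both lost the criterion. Without anterior replicate 2 the log2 difference was 0.48 on ILMN_2635631 and 0.43 on ILMN_1248740. Sema3a, which acts through Nrp1, was lower in the posterior lobes on ILMN_2684289, with 10.43 and 10.37 in the anterior and 9.71 and 10.08 in the posterior lobes. Its log2 difference was -0.50, with a standard error of 0.14 and an adjusted p of 0.36 by limma, or 1.42-fold lower. The posterior arrays differed more from each other than the anterior ones did, and the criterion was lost without posterior replicate 1, where the log2 difference was -0.32, and with the methods' t-test.

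The semaphorins of classes 4 to 7, which are bound to the membrane, had 7 of 23 tested probes lower and 0 higher past the criterion, against 5.00% and 3.30% of all tested probes. By limma 10 had an unadjusted p under 0.05, all of them lower, against 10.1% of all tested probes in both directions. The differences were below 0 for 18 of the 23, with a median of -0.24. Without anterior replicate 2 that median was -0.087. Sema7a, which is anchored to the membrane by a lipid and is also known from immune cells, gave 12.17 and 12.09 in the anterior and 11.72 and 11.84 in the posterior lobes on ILMN_2790357. Its log2 difference was -0.34, with a standard error of 0.08 and an adjusted p of 0.28 by limma, or 1.27-fold lower. It passed the criterion under 13 of these 14 alternatives, losing it without posterior replicate 1. Of the tested probes of Sema4f, ILMN_1255851 passed the criterion with 9.84 and 10.27 against 9.50 and 9.63, a log2 difference of -0.49 that was -0.28 without anterior replicate 2. The other, ILMN_2998813, gave 10.85 and 10.89 against 10.62 and 10.64, a tight difference of -0.24 that fell short of 1.2-fold. Sema4a (ILMN_1215120) and Sema4g (ILMN_2718314) were likewise under 1.2-fold, with log2 differences of -0.23 and -0.25 and a standard error of 0.08 each. On both, the lobes did not overlap.

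Sema4d, which signals through plexins of class B, had 7.74 and 7.79 in the anterior and 7.51 and 7.45 in the posterior lobes on ILMN_2762582, a log2 difference of -0.29. Sema4b was not lower, with differences of 0.03 and 0.11. Sema5a was lower on ILMN_2604226, with 11.80 and 11.45 against 11.34 and 11.19, and on ILMN_2604224, with 11.26 and 10.99 against 10.91 and 10.71. The anterior arrays of both probes were spread by almost as much as the lobe means of -0.36 and -0.32 differed. The dimmer Sema5a probes ILMN_1227400 and ILMN_2565924 had differences of 0.11 and 0.07, so the probes of this gene did not move together. Without anterior replicate 1 both brighter probes were at -0.19 and no longer passed. Sema6b (ILMN_2769285) had a log2 difference of -0.27 and Sema6c (ILMN_2876749) one of -0.34, and the second Sema6b probe, ILMN_3158135, had -0.12. The criterion was lost for Sema4d, Sema6b and Sema6c when the arrays were shifted to a common 75th percentile, and for these and both Sema5a probes without normalization.

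Sema6a, a membrane ligand known to guide granule neurons out of the external granule layer through Plxna2, showed no lobe difference past the criterion on any of 4 probes. On ILMN_1214701 it gave 12.59 and 12.71 in the anterior and 12.60 and 12.69 in the posterior lobes, a difference well within its standard error of 0.08. Plxna2 (ILMN_2701815) gave 11.73 and 11.67 against 11.70 and 11.58, a log2 difference of -0.06 with the same standard error. The arrays of the lobes overlapped for both genes of this ligand and receptor pair.

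Of the other semaphorin receptors, Plxnb3 was lower in the posterior lobes. This plexin of class B is known from oligodendrocytes. On ILMN_2759012 it gave 9.54 and 9.28 in the anterior and 8.93 and 8.87 in the posterior lobes, a log2 difference of -0.51 with a standard error of 0.13 and an adjusted p of 0.33 by limma, or 1.42-fold lower. With the methods' t-test Plxnb3 lost the criterion, and without anterior replicate 1 its log2 difference was -0.38. Plxnb2, which acts in proliferating and migrating granule cells, gave 11.71 and 11.83 against 11.81 and 11.70 on ILMN_2461098, and its lobes overlapped. Plxnb1 and both probes of Plxnc1 had differences between -0.13 and -0.11, none past the criterion. Plxnd1, a receptor of vessels and neurons, had one of 0.20 (ILMN_1214608, unadjusted p = 0.078 by limma). The co-receptor Nrp1 had 10.82 and 10.83 against 10.88 and 10.75 on ILMN_1237197, a log2 difference of -0.01, and 0.14 on ILMN_2669912.

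**Figure D3:**
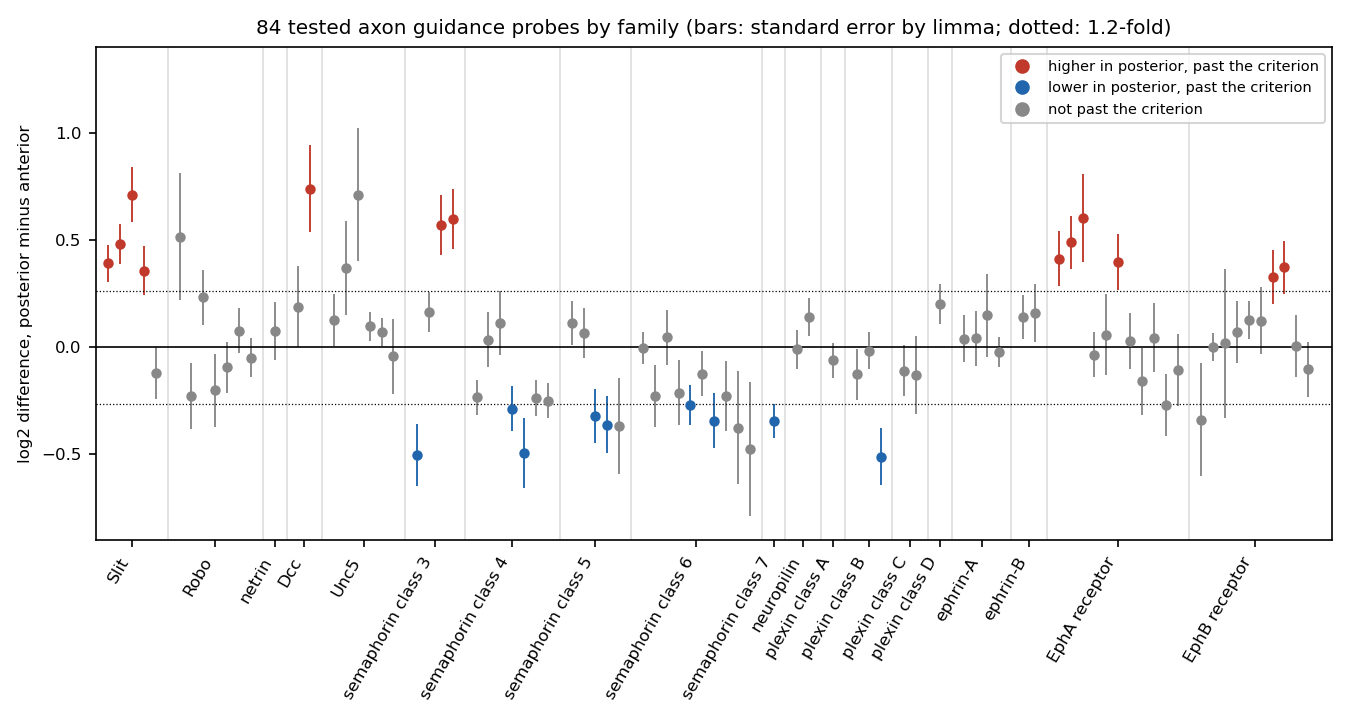
Log2 difference, posterior minus anterior, of the 84 tested guidance probes by family, with the standard error by limma as bars and dotted lines at 1.2-fold. Red probes were higher and blue probes lower past the criterion. The red probes are those of Slit2, Dcc, Sema3f, Epha3, Epha5 and Ephb4, and the blue ones are semaphorins and Plxnb3.

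Eph receptors are tyrosine kinases that respond to ephrins on neighbouring cells. Of their 21 tested probes 6 were higher past the criterion, 28.6%, and 0 lower, against 3.30% and 5.00% of all tested probes. By limma 6 had an unadjusted p under 0.05, against 10.1% of all tested probes. Of the 6 higher probes 3 belong to Epha3 and are not independent of each other. Epha3, a receptor of A-type ephrins, was higher on all 3 tested probes. ILMN_2831656 gave 10.10 and 9.56 in the anterior and 10.59 and 10.28 in the posterior lobes, a log2 difference of 0.60 (standard error 0.21, adjusted p = 0.42 by limma). On ILMN_2629805 the signals were 7.72 and 7.58 against 8.21 and 8.07, and on ILMN_2629804 they were 8.23 and 8.04 against 8.56 and 8.53. Anterior replicate 2 was the lowest array on each of the 3, and the posterior arrays lay above both anterior arrays. The differences of ILMN_2629805 and ILMN_2629804 were 0.49 and 0.41. Without anterior replicate 2 the difference of ILMN_2831656 was 0.33, and without posterior replicate 1 it was 0.45 and no longer passed, as with the methods' t-test.

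Ephb4, known from veins and vessel growth, was higher on 2 of 3 probes. ILMN_2777884 gave 8.53 and 8.37 in the anterior and 8.85 and 8.80 in the posterior lobes, a log2 difference of 0.37 (standard error 0.12, adjusted p = 0.42 by limma). ILMN_1230479 had a difference of 0.33 and ILMN_2973206 one of 0.01, with 7.87 and 7.54 against 7.67 and 7.75. Without normalization both higher probes lost the criterion. Epha5 had a probe, ILMN_2599385, that was detected on the posterior arrays only, with an intensity of 151.8 and 149.8 against 135.8 and 92.4, and it was at least 1.15-fold higher there. Its log2 difference of 0.40 was 0.24 without anterior replicate 2, where it did not pass. The other tested Epha5 probe, ILMN_1237026, was detected on all 4 arrays and had a log2 difference of 0.06.

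The remaining Eph receptors and the ephrins did not pass the criterion. Epha4, a receptor of both ephrin types, gave 7.26 and 7.35 in the anterior and 7.32 and 7.22 in the posterior lobes. Epha7 had 4 tested probes with differences between -0.27 and 0.04. Ephb1 gave 12.80 and 12.88 against 12.86 and 12.83 on ILMN_2672903, a log2 difference of 0.00 with a standard error of 0.06, and Ephb2 (ILMN_2622255) had a difference of 0.13. All 6 tested ephrin probes had differences between -0.02 and 0.16. Efna5, a ligand of EphA receptors, Epha3 among them, gave 12.33 and 12.38 in the anterior and 12.37 and 12.29 in the posterior lobes on ILMN_2757641. Efnb1 (ILMN_2698443) gave 10.16 and 10.02 against 10.24 and 10.22, so that its lobes did not overlap while the log2 difference of 0.14 had a standard error of 0.10.

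The 14 genes with a probe past the criterion had 20 further probes that were too dim to be tested. Of these, Sema6b ILMN_2623920 and Sema7a ILMN_2666526 were detected on 1 array each. The other 18 were detected on none, namely ILMN_1235829, ILMN_1242129 and ILMN_1245807 of Slit2, ILMN_1226810 and ILMN_2597650 of Dcc, ILMN_2572191 of Sema3a, ILMN_2685037 of Sema3f, ILMN_1222378 and ILMN_1234391 of Sema4f, ILMN_1223297 of Sema5a, ILMN_3078870 of Sema6b, ILMN_1220277 and ILMN_2593699 of Sema6c, ILMN_2601974 of Sema7a, ILMN_2561630 of Epha3, and ILMN_1231684, ILMN_1235217 and ILMN_2567897 of Epha5.

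Further genes of the guidance pathways, such as cytoplasmic effectors of these receptors, were taken from a list of 61 genes, of which 49 could be tested. Of their 78 probes 6 were higher and 3 lower past the criterion, 11.5% against 8.29% of all tested probes, with a median of 0.0042. None passed the adjusted p by limma, and 9 had an unadjusted p under 0.05, against 10.1% of all tested probes. Limk1, the kinase that acts on cofilin in the growth cone, had 11.55 and 11.52 in the anterior and 12.08 and 12.12 in the posterior lobes on ILMN_2653927, a log2 difference of 0.57 (standard error 0.07, adjusted p = 0.078 by limma). Its arrays within a lobe differed by far less than the lobes. Flrt2, a membrane protein that binds Unc5 receptors, had a log2 difference of 0.49 (ILMN_2926842), and Cxcr4, the receptor that holds granule progenitors in the external layer, had 0.39 (ILMN_2630459). Its ligand Cxcl12 had 0.40 on ILMN_2737302 and -0.22 on ILMN_2658908, of which the first passed the criterion. Among the lower probes, Rgmb ILMN_2941052 had a log2 difference of -0.38. Limk2 (ILMN_2479227) was not detected on either posterior array and was at least 1.09-fold lower there. Limk2 is a kinase related to Limk1, and Rgmb a ligand of Neo1. The largest difference of the list, 0.74 for the kinase Rock1 (ILMN_2742675), did not pass, with 10.86 and 9.20 in the anterior and 10.78 and 10.76 in the posterior lobes, where anterior replicate 2 stood apart. Neo1, a Dcc relative that binds netrin, had 4 tested probes with differences between -0.19 and 0.07.

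Among the cell type marker lists, those of oligodendrocytes and meningeal fibroblasts had the largest shares of genes past the criterion. Genes are counted here by their brightest probe, by which 3.45% of all genes were higher and 4.46% lower. By limma 6 of 24 oligodendrocyte and 2 of 13 fibroblast probes passed the adjusted p. The share of all tested probes was 0.106%, and 0 of the 84 guidance probes passed it. Of 12 tested oligodendrocyte genes 11 were lower in the posterior lobes past the criterion, with a median log2 difference of -0.86, and their summed normalized intensity was 117536 to 119405 in the anterior and 77571 to 83009 in the posterior arrays. Mbp, Mag, Mog and Mobp were among them, and Olig2 was not bright enough to be tested. Of 9 genes of meningeal fibroblasts 7 were higher, with a median of 0.52 and sums of 16467 to 18644 in the anterior and 24719 to 29199 in the posterior arrays. The part of these cells in the lower signals of Plxnb3 and the semaphorins or in the higher signals of Slit2, Sema3f and Epha3 was not tested. The 8 endothelial genes had a median of 0.0029 and sums of 12574 to 13977 against 13072 to 13362, and 0 of their brightest probes passed the criterion or had an unadjusted p under 0.05 by limma. A dimmer probe of the endothelial cadherin Cdh5, ILMN_2866951, did pass, with a log2 difference of 0.46, as 1 of 10 endothelial probes. The 8 astroglial genes had a median of -0.0023, the 6 Purkinje cell genes one of -0.091, the 6 microglial genes one of 0.063 and the 2 tested genes of GABA interneurons one of -0.060, and 0 of these genes passed the criterion, with 2 astroglial genes and 1 Purkinje cell gene at an unadjusted p under 0.05 by limma. Of the choroid plexus genes 1 of 3 was lower, with a median of -0.89. Their sums were 1131 to 11324 in the anterior and 748 to 4209 in the posterior arrays, so the anterior arrays differed widely from each other. Of the granule neuron genes 2 of 7 were higher, with a median of 0.12, and of the unipolar brush cell genes 1 of 4, with a median of 0.13. The granule progenitor genes had a median of 0.058, and 0 of 4 passed the criterion or had an unadjusted p under 0.05 by limma.

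**Figure D4:**
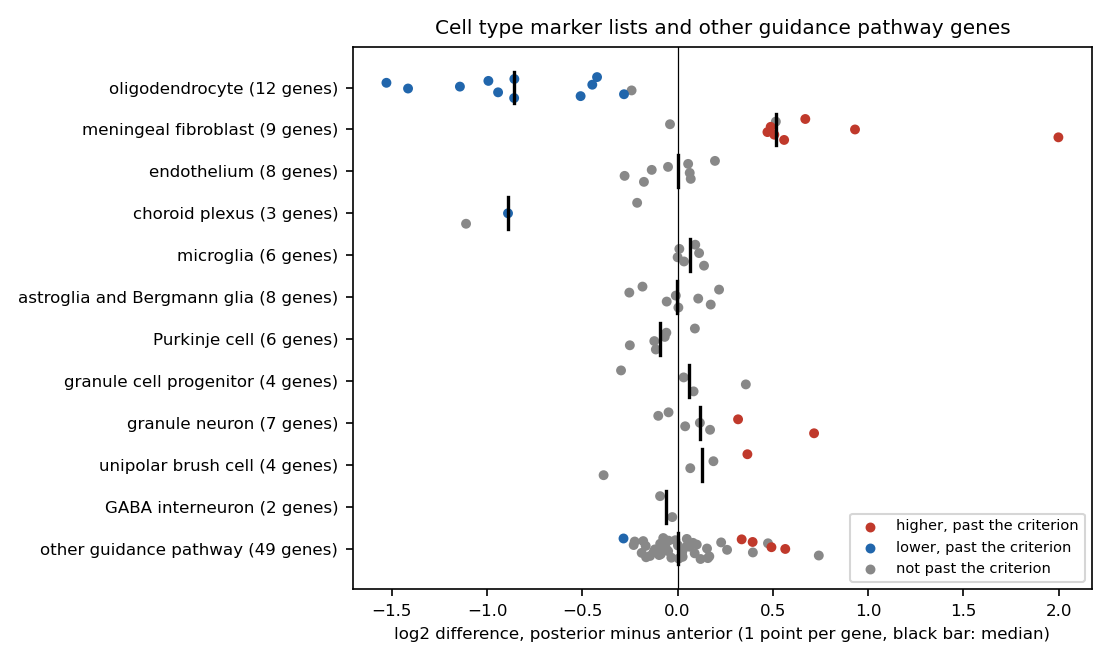
Log2 difference, posterior minus anterior, for the tested genes of each cell type list and of the other guidance pathway genes, with 1 point per gene (its brightest probe) and a black bar at the median. The oligodendrocyte genes lie below 0 with a median of -0.86 and the fibroblast genes mostly above 0 with a median of 0.52, whereas the 49 other guidance genes centre on 0.0021.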

How the data were processed

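RNA of anterior and posterior lobes was hybridized to 1 array per sample. The authors deposited, as exported by GenomeStudio 1.9.0 with normalization off, the mean bead intensity, the SD over beads and the number of beads (a median of 40 to 42) of 45281 probes per array. No background subtraction is named. They also deposited a detection score, the fraction of negative controls dimmer than the probe. The number in each column name was matched to that in the sample labels, and 16 further columns were not used.

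In R 4.3.3, quantile normalization was applied to the intensities, values under 1 were set to 1, and log2 was taken. The floor and log base are those of the methods. Probes with a detection score over 0.95 on at least 2 arrays entered the test of posterior minus anterior lobes in limma 3.58.1 (lmFit, eBayes with an intensity trend) and Benjamini-Hochberg adjustment over all 21726 tested probes. Each probe was kept on its own, and a gene was named by its array symbol in RefSeq (GRCm38.p6), which matched 65 of 65 genes. The fits were also run on simulated data with independent noise on each array. Those data lack the differences that samples of equal replicate number shared between lobes, so they do not check the fit for them. The number of arrays limits the precision.

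Named are all guidance probes past the adjusted p or the criterion, all probes of their genes, probes detected in 1 lobe, the brightest gene of each family, and genes with known cerebellar roles. The members, lists and tests were chosen with earlier results of these data known. Alternatives were neqc (offset 16), no normalization, a shift to the 75th percentile, cyclic loess, other filters, no trend, the methods' t-test, a replicate block, 1.5-fold, 1 probe per gene and leaving out each array. Groups came from the lobe in the sample titles. The array file names no genome build, so coordinates are given for the RefSeq promoters only.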

Additional observations from a re-analysis of the deposited data

How the results depend on the processing

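None of the 22 guidance probes past the criterion changed sign under the alternatives, which gave 299 values of single probes, 236 of them still past the criterion. Leaving out an array, between 20 and 22 of them could be tested, the probes at background in the anterior lobes being dropped without a posterior array. Their sign could not turn there, since the lobes did not overlap on any of the 22. The other tests and filters do not move a difference, so only the normalizations could have turned a sign. The count of 22, 13 higher and 9 lower, was 9 with the methods' t-test (3.41% of all tested probes), 11 with 1 probe per gene (4 higher and 7 lower) and 4 at 1.5-fold (1.79% of all tested probes), the latter all higher (Dcc, Slit2, Epha3 and Sema3f). When an array was left out it ranged from 3 to 35, being 3 without posterior replicate 1 (Slit2 ILMN_1253797 and ILMN_1258994 and Sema6c), 35 without anterior replicate 1 and 11 without posterior replicate 2. A lone array of a lobe is then assumed to vary like the other lobe. The count of 9 other pathway probes was 2 without normalization, 4 with the methods' t-test and 0 at 1.5-fold by limma, where 9 had an unadjusted p under 0.05, and leaving out an array it lay between 2 and 26. Of all tested probes, 8.29% passed the criterion under the main settings and 6.06% without normalization. That share was 3.41% with the methods' t-test and 1.79% at 1.5-fold. Leaving out an array, that share and the pathway count were both lowest without posterior replicate 1 and both highest without anterior replicate 1. The cause of these changes was not tested.

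By limma the count of guidance probes past the adjusted p, 0, was between 0 and 21 when an array was left out, with 21 without anterior replicate 1 (12.3% of all tested probes) and 4 without anterior replicate 2 (1.17%). At an unadjusted p under 0.05, a setting added after the data had been seen, it was 25. With the replicate number as a block it was 7, where 2.71% of all tested probes passed, namely ILMN_1258994 and ILMN_1253797 of Slit2, both criterion probes of Sema3f, ILMN_2831656 of Epha3, ILMN_1231359 of Dcc and ILMN_2454223 of Unc5c (adjusted p between 0.015 and 0.044 by limma). The block gave 29 guidance and 13 of 78 other pathway probes past the criterion, against 13% of all tested probes. The labels do not say that equal numbers share an animal and there are only 2 pairs, so the samples were not treated as paired. Replicate 1 minus replicate 2 in one lobe had r = 0.46 with the same in the other lobe over all tested probes. Over the tested guidance probes it was 0.54. Samples of equal number thus shared a part of their differences, which the fit without the block leaves in the spread. The source of this shared part was not tested. The block moved no difference by construction. Other normalizations kept the median difference of all tested probes between -0.00067 and 0.032. Signals near background, as for Slit2 ILMN_1232381 and Epha5 ILMN_2599385, give bounds only.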

Other observations

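Guidance probes could differ between replicates 1 and 2 by as much as between the lobes. Ephb2, a receptor of B-type ephrins, gave on ILMN_1220911 a log2 signal of 8.20 in anterior and 8.45 in posterior replicate 1, and 7.66 and 7.45 in replicate 2. The other tested Ephb2 probes did not share this order. Unc5c on ILMN_2454223 was higher in replicate 1 than in replicate 2 by 0.83 on the log2 scale in the anterior lobes, more than its lobe difference of 0.71, and by 0.54 in the posterior lobes, less than that.

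Anterior replicate 2 alone stood apart for a further group. Sema6d, a class 6 semaphorin, was highest there on ILMN_3163428, ILMN_3103992 and ILMN_2680415, the first with 8.71 against 7.65 to 7.84 on the other arrays. Ephb1 ILMN_2559390 was 8.91 there against 8.09 to 8.18, and Sema5b ILMN_2606570 was 9.32 against 8.57 to 8.67. Robo1 ILMN_1244484 and Unc5b ILMN_2523316 were lowest there, as given above.

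A few probes carry older symbols and fell outside the choice by symbol. The probe of UNC5H3, which RefSeq gives as an older name of Unc5c, had 10.55 and 9.97 in the anterior and 10.85 and 10.55 in the posterior lobes (log2 difference 0.43, standard error 0.21, adjusted p = 0.55 by limma). NTN2L, an older name of Ntn3, had log2 differences of 0.07 and -0.17 on its probes, and PLXN2, an older name of Plxna2, was not detected on any array.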
